A study of Drosophila melanogaster with 3 samples.

Results

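Chromosome 4, the smallest of Drosophila melanogaster, is described here gene by gene, through the places on its transcripts where the Piwi-family protein Aubergine (Aub) was called as crosslinked. The members are all called intervals on chromosome 4 except those of FBgn0085432. They number 1309 of the 51962 intervals of the 3 libraries and lie in 71 of 6502 bound genes, where bound means holding at least 1 called interval in any library. The libraries were made by iCLIP, in which ultraviolet light joins a protein to the RNA it touches and the joined RNA is purified and sequenced. The labels give all 3 as cultured germline stem cells of the genotype UASp-GFP-aub/+; bam∆86 hs-bam/nos-gal4 bam∆86, so every library shared the bam mutant alleles, the heat-shock bam transgene and a GFP-tagged Aub driven in the germline by nos-gal4. No drug was given, and the cells received 150 mJ/cm2 of light at 254 nm. They form 1 group numbered 1 to 3, without a control library among the files used. The labels name no separate cultures, so differences between replicates may be technical ones.

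Aub is loaded with piRNAs, short RNAs that direct the silencing of transposons in germ cells, and it also acts on messenger RNAs there. Much of chromosome 4 is packed as heterochromatin, yet its genes are transcribed. An interval carries a position, a strand and a gene ID and no height, so the values below count intervals. A gene's share is its intervals as a percentage of all intervals of that library. Counts of intervals mix crosslinking with the abundance and length of a transcript, which were not measured here. The germline, somatic, muscle, neuronal, fat body and haemocyte markers that would check the labelled cell type could not be matched to gene IDs (0 of 29), so that check was not made. No sequence of the build used, dm3, was at hand, so bases under the intervals are not shown.

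Chromosome 4 members supplied 141 of 4007 intervals in replicate 1, 857 of 36157 in replicate 2 and 311 of 11798 in replicate 3. As shares of the whole library these came to 3.52% (95% Wilson interval 2.99 to 4.14), 2.37% (2.22 to 2.53) and 2.64% (2.36 to 2.94), with a mean of 2.84% ± 0.60 (SD, n = 3). The share was highest in the library with fewest intervals. The number of intervals is the only measure of depth in the files, and 1 interval was worth 0.0250%, 0.00277% and 0.00848% of replicates 1, 2 and 3. A value resting on 1 interval of replicate 1 is therefore coarse. The gene left out, FBgn0085432, held 6, 76 and 20 intervals in replicates 1, 2 and 3.

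By mean, the bound genes of chromosome 4 carried more intervals each than bound genes elsewhere, in each library. They had a mean of 3.28, 12.2 and 5.55 intervals in replicates 1, 2 and 3, against 2.73, 5.597 and 3.53 off chromosome 4. The medians were 2, 9.5 and 3 against 2, 3 and 2, so replicate 1 was level by median. The ratios of the means were 1.20, 2.19 and 1.58, with a geometric mean of 1.61 (0.68 ± 0.43 on the log2 scale, SD, n = 3). An exact two-sided sign-flip permutation test over the 3 libraries gave p = 0.25, the smallest value that 3 libraries allow, so this design cannot pass a threshold of 0.05. X came closest, with a ratio of chromosome 4 to X of 1.45 (1.13, 1.92 and 1.42 in replicates 1, 2 and 3), and 2R was farthest with 1.72. All 5 comparisons with a major arm were above 1 in 3 of 3 libraries (p = 0.25 each, same exact test). Among genes bound in all 3 libraries the ratio to other chromosomes was 1.21. Over all bound genes except unc-13 it was 1.46, to be set against the 1.61 above.

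**Figure D1:**
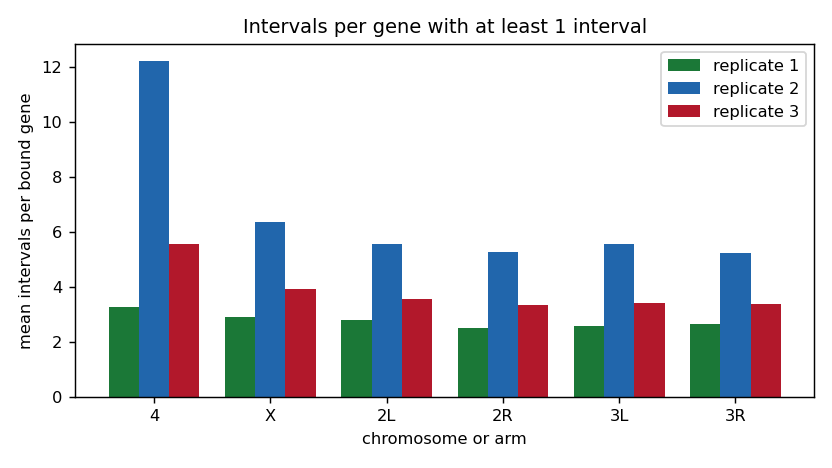
Mean number of intervals per gene with at least 1 interval, by chromosome 4 (without FBgn0085432) or chromosome arm, with 1 bar per replicate. The bar of chromosome 4 is the tallest in each replicate, at 3.28, 12.2 and 5.55.

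Many neighbouring intervals lay close together. In replicate 2, 209 of 787 neighbouring pairs of intervals in the same chromosome 4 gene were 5 nt or less apart (26.6%, 95% Wilson interval 23.6 to 29.8), against 21.6% (21.1 to 22.1) off chromosome 4. Replicate 1 went the other way, with 2 of 98 pairs (2.04%, 0.561 to 7.14) against 5.603% (4.76 to 6.59) elsewhere. Replicate 3 had 21 of 255 (8.24%, 5.45 to 12.3) against 6.18% (5.68 to 6.73), and in both libraries the Wilson intervals overlapped. Intervals of 5 nt or less made up 7.80%, 37.5% and 14.8% of chromosome 4 in replicates 1, 2 and 3, against 8.55%, 28.1% and 11.1% elsewhere. The difference was positive in 2 of 3 libraries (4.10 percentage points on average, exact sign-flip permutation p = 0.50, two-sided). Joined stretches, which merge such pieces, are therefore given beside the counts. Intervals of all 3 libraries were joined together, and the stretches holding an interval of a library were then counted for it. Per bound gene there were 2.84, 6.31 and 4.13 stretches on chromosome 4 and 2.18, 3.18 and 2.79 elsewhere, a ratio of 1.56.

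Genes of chromosome 4 recurred between libraries. Of the 71 genes, 41 were bound in all 3 libraries (57.7%), where 20.9% of all 6502 bound genes were. A further 14 were bound in replicates 2 and 3, 2 in replicates 1 and 2, 13 in replicate 2 alone and 1 in replicate 3 alone. The 41 recurrent genes held 1130 of the 1309 intervals. Recurrence went with the number of intervals. Members had a median of 14 intervals over the 3 libraries, against 4 for genes elsewhere, and 43 of the 71 (60.6%) had 10 or more, against 24.5% elsewhere. Among genes with 20 or more intervals, 25 of 26 members and 596 of 656 other genes (90.9%) were in all 3 libraries. Among genes with 10 to 19 intervals the counts were 12 of 17 (70.6%) and 494 of 921 (53.6%), and among genes with 3 to 9 intervals 4 of 18 (22.2%) and 229 of 2403 (9.53%). These counts were not tested, since genes are not replicates.

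unc-13 had the highest mean share of the 71 genes. It encodes a presynaptic protein that readies synaptic vesicles for release, and it is best known from neurons. Replicate 1 gave it 12 intervals, replicate 2 gave 54 and replicate 3 gave 53. The corresponding shares were 0.299%, 0.149% and 0.449% (mean 0.299% ± 0.150, SD, n = 3). It ranked first of the 71 in each library and 6 among all bound genes by mean share. In replicate 3 it supplied 17.0% of the members' intervals, against 8.51% in replicate 1 and 6.30% in replicate 2.

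The intervals of unc-13 ran over 34852 nt of the minus strand, from 890279 to 925130, and the libraries differed in which end they filled. The first 5 kb from the 5′-most bound nucleotide held 7 of 12 intervals in replicate 1 (58.3%, 95% Wilson interval 32.0 to 80.7), 7 of 54 in replicate 2 (12.96%, 6.42 to 24.4) and 33 of 53 in replicate 3 (62.3%, 48.8 to 74.1). The last 5 kb held 2, 35 and 5. Replicate 2 thus lay mostly at the 3′ end of the bound span and replicate 3 mostly at the 5′ end, and their Wilson intervals for the first 5 kb did not overlap. The zones were chosen after the values had been seen, the Wilson intervals cover counting error only, and neighbouring intervals are not independent. The intervals were short in replicate 2 (median 5 nt) and longer in replicates 1 and 3 (medians 23.5 and 14 nt). Replicate 2 was also the shortest elsewhere. The medians in replicates 1, 2 and 3 were 25, 9 and 21 nt over all members and 25, 13 and 25 nt off chromosome 4. Between 10 and 20 kb from the 5′ end there were 2 intervals in all, both from replicate 1.

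**Figure D2:**
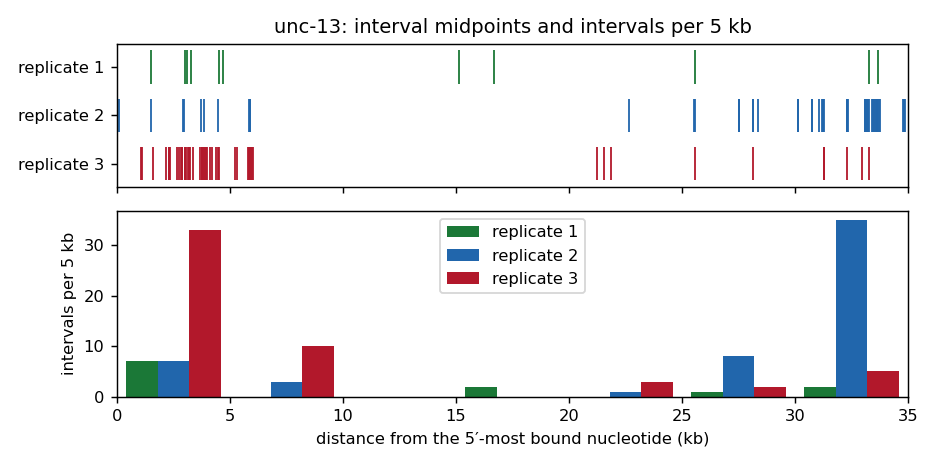
Intervals of unc-13 along the bound span, by distance in kb from its 5′-most bound nucleotide. The upper panel marks each interval's midpoint by replicate and the lower panel counts midpoints per 5 kb: replicate 3 has 33 in the first 5 kb and replicate 2 has 35 in the last.

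Joining the intervals of unc-13 within 50 nt gave 43 stretches, of which 4 had intervals from all 3 libraries and 12 from at least 2. The stretch with the highest mean share, from 922031 to 922298, held 2 intervals in each of replicates 1 and 2 and 6 in replicate 3. It lay 2832 nt from the 5′ end of the bound span. Close by, the stretch from 920601 to 920660 held 1, 1 and 2. The other common stretches lay toward the 3′ end. The one from 899535 to 899618 had 1, 2 and 1 intervals, and the one at 891828 to 892042 had 1, 7 and 1. Both ends of the bound span thus had places seen in each library, although most intervals of replicate 2 and of replicate 3 lay at opposite ends. The stretches from 921205 to 921488 and from 919158 to 919351 held 8 and 7 intervals in replicate 3, 2 and 3 in replicate 2, and none in replicate 1. RefSeq's gene table for the Release 6 assembly places the antisense RNA genes asRNA:CR43425 and asRNA:CR44029 and a pseudogene within the extent of unc-13. Each deposited row carries a strand and 1 gene ID. Off chromosome 4 some positions were listed more than once in a library, with 3860 rows of replicate 1 at 3839 positions. The authors' rule for overlapping genes was not found in the labels.

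FBgn0025741 had the next highest mean share. It is not named in the files or tables used here. It held 11, 32 and 13 intervals in replicates 1, 2 and 3 between 1030569 and 1047695 of the minus strand (0.275%, 0.0885% and 0.110%; mean 0.158% ± 0.102). Its share was below that of unc-13 and above that of Thd1 in 3 of 3 libraries. Leaving out replicate 1 lowered the mean to 0.0993% and placed the gene at rank 4. Its intervals were spread over 29 stretches. Only the one at the 5′ end of the bound span, from 1047554 to 1047695, came from all 3 libraries, with 2, 3 and 2 intervals.

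Thd1, which encodes a thymine DNA glycosylase, an enzyme that removes mismatched thymine from DNA, came after it. It held 8, 26 and 8 intervals in replicates 1, 2 and 3 (0.1997%, 0.0719% and 0.0678%; mean 0.113% ± 0.075). The value of replicate 1 stood above the other 2, and without that library the mean share was 0.0699% and the rank 13. The intervals lay between 561353 and 578463 of the minus strand in 16 stretches, with 20 of the 42 in the 5′ part of this span, 20 in the 3′ part and 2 between, when the span is divided into 3 parts of equal length.

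The stretch of Thd1 at the 5′ end of its bound span, from 578069 to 578463, had the highest mean share of all 612 stretches of the 71 genes. It was 395 nt long and held 5, 8 and 3 intervals, which were 16 of the gene's 42. This first rank rested on replicate 1: the mean share was 0.0574% ± 0.0583 and fell to 0.0238%, rank 5, without that library. A second gene of the same strand, FBgn0264618, was called in the same place, between 577983 and 578457, with 1, 11 and 4 intervals (0.0298% ± 0.0045). Of its 16 intervals, 15 overlapped an interval of Thd1 from the same library: the 1 in replicate 1, all 11 in replicate 2 and 3 of 4 in replicate 3. Reads there could therefore belong to either gene, and the counts of both are uncertain. Taken as 1 stretch, the place held 6, 19 and 6 intervals when the calls of both genes are added. Overlapping calls are counted more than once in that sum. The RefSeq table lists Thd1 under the symbol Tdg and places a noncoding RNA gene, lncRNA:CR43958, and the protein-coding gene zfh2 over parts of it. The sources used here do not say whether FBgn0264618 is one of these. The next stretch of Thd1 lay at 565910 to 566217. Replicate 1 had 2 intervals in it, replicate 2 had 8 and replicate 3 had none.

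**Figure D3:**
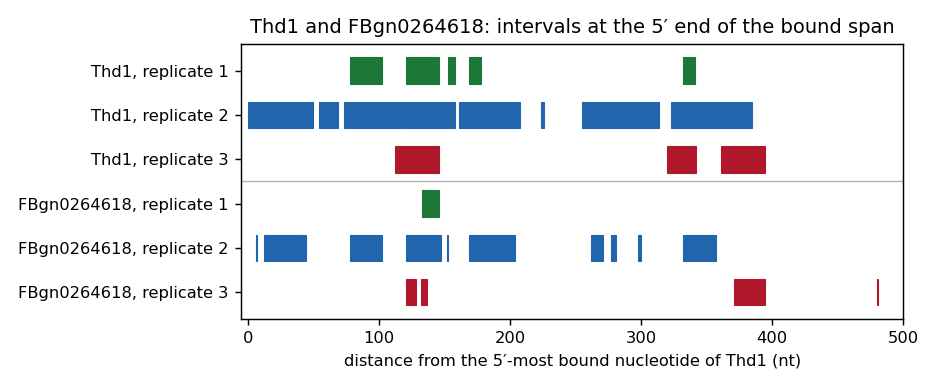
Intervals of Thd1 and of FBgn0264618, by replicate, along the first 500 nt from the 5′-most bound nucleotide of Thd1. Each box is 1 interval drawn to scale: 15 of the 16 intervals of FBgn0264618 overlap an interval of Thd1 in the same library.

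Below unc-13 the order was not resolved. Thd1 was above the gene ranked next, FBgn0039925, in 1 of 3 libraries. Of the 24 neighbouring pairs among the 25 genes with the highest mean share, 2 kept their order in 3 of 3 libraries, and both involved FBgn0025741. In none of the 24 pairs did the 3 values of the higher gene lie above all 3 of the lower. All 25 were bound in all 3 libraries, and together they accounted for 78.0%, 66.6% and 74.6% of chromosome 4 in replicates 1, 2 and 3. The 5 highest held 29.1%, 19.5% and 33.1% (mean 27.2% ± 7.002). Leaving out replicate 1, 2 or 3 kept 21, 23 and 24 of the 25 among the 25 highest. Besides FBgn0025741 and Thd1, 5 of the 25 had a mean share more than 1.5 times lower without replicate 1. It went from 0.0686% to 0.0406% for FBgn0004859, from 0.0666% to 0.0375% for FBgn0025936 and from 0.0649% to 0.0350% for FBgn0264607. It went from 0.0510% to 0.0265% for FBgn0052850 and from 0.0454% to 0.0182% for FBgn0039907. Across genes bound in either library, Spearman's rho between the numbers of intervals was 0.74 for replicates 2 and 3 (71 genes), 0.71 for replicates 1 and 2 (70 genes) and 0.45 for replicates 1 and 3 (58 genes). Over genes bound in both it was 0.62, 0.44 and 0.43 for these pairs (55, 43 and 41 genes). The points share gene length and transcript level, so these are descriptions across genes.

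**Figure D4:**
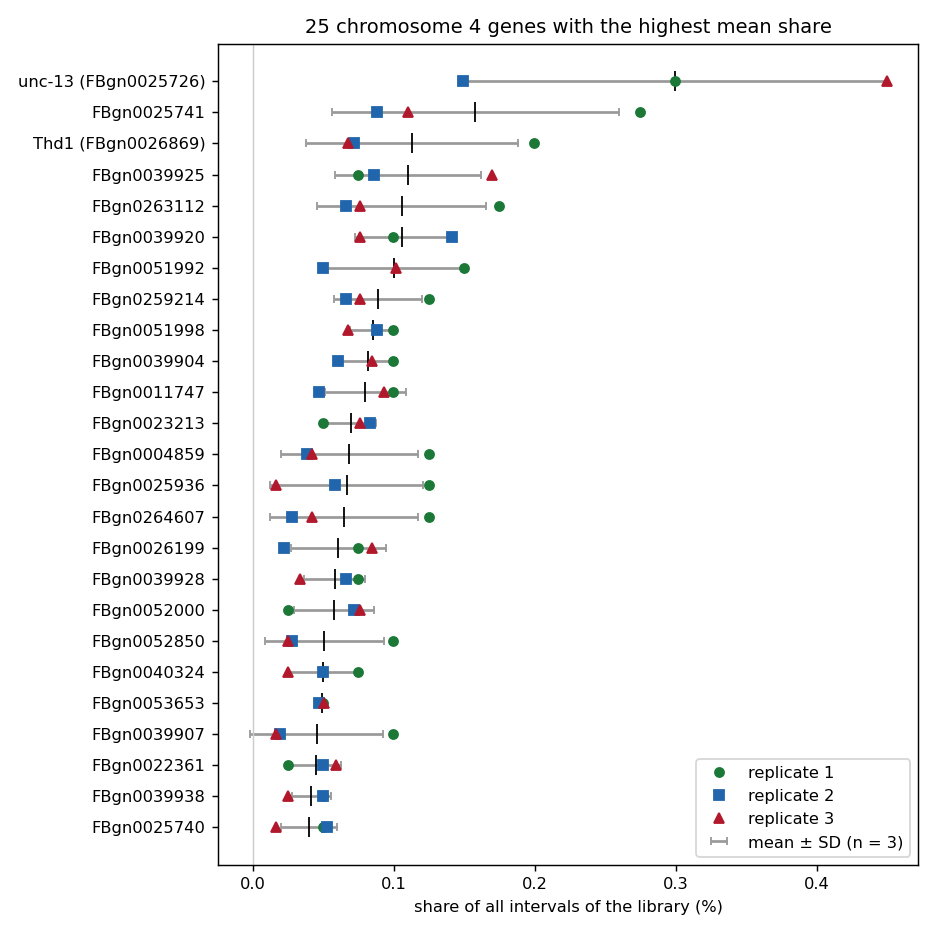
Share of all intervals of a library (percent) for the 25 genes of chromosome 4 with the highest mean share, 1 symbol per replicate, with the mean (black tick) and SD (grey bar, n = 3). unc-13 has the highest share in each replicate, from 0.149% to 0.449%, and the symbols of neighbouring genes overlap throughout.

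Among the remaining genes of the leading 12, FBgn0039925 was the most compact. It held 3, 31 and 20 intervals in replicates 1, 2 and 3 within 4345 nt of the plus strand, from 1185521 to 1189865, which is 12.4 intervals per kb of bound span against 3.41 for unc-13. Its intervals were spread evenly, with 19, 18 and 17 in the 5′, middle and 3′ parts of equal length. The stretch from 1187349 to 1187542 held 1, 3 and 6 of them, and a second common stretch, from 1189160 to 1189188, held 1, 1 and 2.

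FBgn0039920 showed the opposite layout. It held 4, 51 and 9 intervals between 691856 and 710984 of the plus strand, and 59 of the 64 lay in the 3′ part of that span, among them all 4 of replicate 1 and all 9 of replicate 3. The stretch from 709524 to 709660 held 1, 7 and 2. By covered nucleotides its mean share was 0.0628% in place of 0.106%. Its intervals were short, with medians of 15, 4 and 8 nt in replicates 1, 2 and 3. FBgn0022361 was alike in position, with 23 of its 26 intervals (1, 18 and 7) in the 3′ part and 1, 9 and 2 of them between 586302 and 586471. FBgn0052850 had 16 of 17 there (4, 10 and 3 intervals in all), with 2 intervals from each library in its 3′-most 156 nt, from 341753 to 341908.

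Other genes were bound toward both ends of their span. FBgn0263112 held 7, 24 and 9 intervals between 1219530 and 1227767 of the plus strand, with 12 in the 5′ part, 27 in the 3′ part and 1 between. Its stretch at the 5′ end, from 1219530 to 1219800, held 1, 8 and 3 and had nearly the same share in each library (0.0242% ± 0.0018). In replicate 1 that share was 1 interval, worth 0.0250%, so the small SD says little. FBgn0259214 held 5, 24 and 9 intervals and FBgn0039904 held 4, 22 and 10, each with 1 interval in the middle part. The first had its leading stretch from 351941 to 352059 of the minus strand, with 1, 2 and 2 intervals. The second had 3 common stretches, and the leading one was at the 5′ end of its bound span, from 380613 to 380841 of the plus strand, with 2, 3 and 3. FBgn0051998 held 4, 32 and 8 intervals, and its leading stretch was the 5′-most, from 226448 to 226564 of the minus strand, with 1, 4 and 2. FBgn0011747 held 4, 17 and 11, and its 5′-most stretch, from 150181 to 150291 of the minus strand, held 1, 5 and 3. Of these last 4 genes, FBgn0039904 alone had stretches common to the 3 libraries toward both ends. In FBgn0259214 the common stretch lay toward the 3′ end, and in FBgn0051998 and FBgn0011747 the 2 common stretches of each gene lay toward the 5′ end.

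FBgn0051992 and FBgn0023213 had their leading stretch near the 3′ end. FBgn0051992 held 6, 18 and 12 intervals between 670177 and 681217 of the minus strand. By parts of equal length, 19 lay in the 5′ part, 5 in the middle and 12 in the 3′ part. The stretch from 670593 to 670770, 416 nt from the 3′ end of the bound span, held 3 in each library. It ranked 2 of the 612 stretches by mean share (0.0362% ± 0.0346), and 16 without replicate 1, where the mean share was 0.0169%. The other common stretch of FBgn0051992, from 680224 to 680279, lay 938 nt from the 5′ end of the bound span and held 1 interval in each library. FBgn0023213 held 2, 30 and 9 intervals, and 1, 5 and 1 of them lay between 936082 and 936158, 144 nt from the 3′ end of its span.

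**Figure D5:**
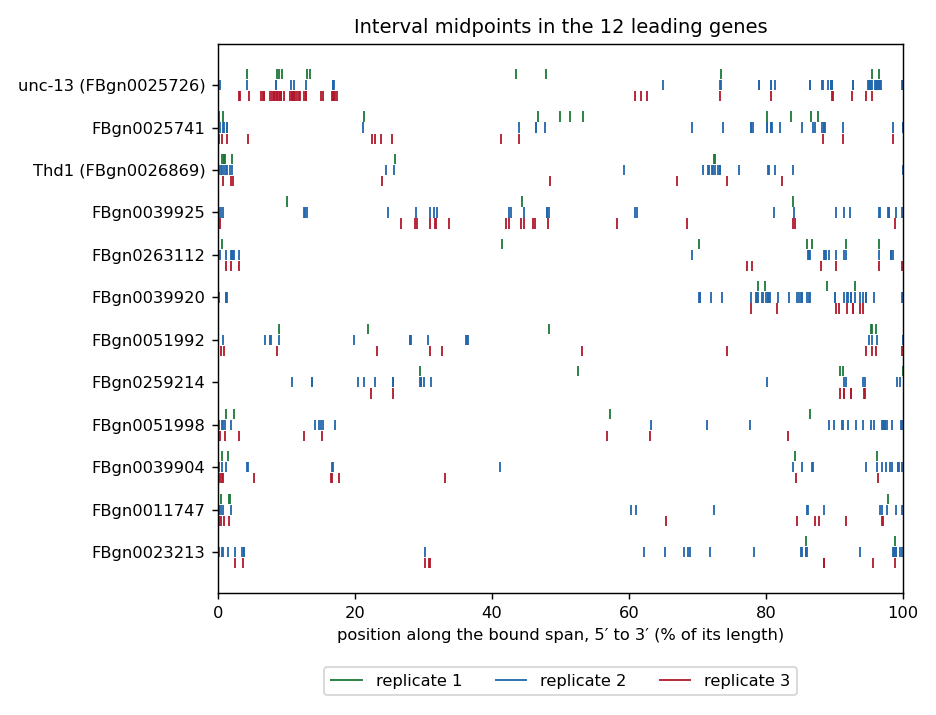
Midpoints of the intervals of the 12 leading genes along each gene's bound span, from its 5′ to its 3′ end in percent of its length, by replicate. FBgn0039920 has 59 of 64 intervals in the 3′ part, FBgn0039925 is filled evenly, and unc-13 has most intervals of replicate 3 at the left and of replicate 2 at the right.

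Genes ranked 13 to 25 held between 13 and 36 intervals in all. FBgn0004859 had 5, 14 and 5 in replicates 1, 2 and 3, of which 2, 6 and 3 lay in its 5′-most stretch, from 76500 to 76858 of the minus strand. FBgn0026199 had 3, 8 and 10, of which 2, 3 and 4 lay in its 5′-most stretch, from 716364 to 716592 of the same strand. In both genes nearly the same share of intervals fell in that 1 stretch (45.8% and 42.9%). FBgn0025936 had 5, 21 and 2, with 1 common stretch at each end of its bound span. FBgn0039928 had 3, 24 and 4, with 1, 5 and 1 between 1136143 and 1136302. FBgn0052000 had 1, 26 and 9, with 1, 4 and 1 between 155390 and 155525. FBgn0039938 had 2, 18 and 3 over 33508 nt, and 1, 7 and 2 of them lay within 164 nt, from 854153 to 854316. In replicate 1 that compact place rested on 1 interval.

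The other 5 of these genes had no stretch common to the 3 libraries. FBgn0264607 held 5, 10 and 5 intervals, FBgn0040324 held 3, 18 and 3, FBgn0053653 held 2, 17 and 6, FBgn0039907 held 4, 7 and 2, and FBgn0025740 held 2, 19 and 2. FBgn0053653 had the longest bound span of the 71 genes, 39719 nt, and the smallest SD of share among the 25 (0.0493% ± 0.0020). In replicate 1 its share rested on 2 intervals, each worth 0.0250%, so the small SD says little. It had no place common to the 3 libraries, although 2 of its 10 stretches had intervals from 2 of them. By covered nucleotides the share was 0.0640%. FBgn0040324 had none of its 24 intervals within 10 nt of an interval of another library. The same held for FBgn0039908, FBgn0262731, FBgn0039932 and FBgn0002521, with 21, 11, 11 and 10 intervals, and for no other of the 71 genes with 10 or more. Those other than FBgn0040324 had 0 to 2 intervals in each of replicates 1 and 3, which left few to compare. Such genes were not counted off chromosome 4.

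The remaining 46 genes were thinner. Of them, 16 were bound in all 3 libraries with 5 to 20 intervals in all, 16 in 2 libraries with 2 to 21, and 14 in 1 library with 1 to 9. Among those bound in replicates 2 and 3, the highest mean shares were those of FBgn0039936 (8 and 7 intervals), FBgn0039890 (12 and 5) and FBgn0039908 (19 and 2). The genes bound in replicates 1 and 2 were CG33978 and FBgn0262731 (2 and 9). FBgn0010217 had the most intervals of any gene bound in replicate 2 alone, with 9, followed by FBgn0039896 with 4, and FBgn0264617, FBgn0039900 and FBgn0087002 had 3 each. FBgn0040037 had the 1 interval found in replicate 3 alone. Replicate 2 had by far the most intervals, so absence from the other libraries cannot be told apart from their lower number.

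A pair of the thin genes had a symbol in the RefSeq table. mGluR encodes the metabotropic glutamate receptor, a receptor of the nervous system. It held no interval in replicate 1, 2 in replicate 2 and 2 in replicate 3, within the plus-strand span from 959062 to 969378. The closest pair from different libraries was at 964528 to 964551 in replicate 2 and 964786 to 964810 in replicate 3, so no place recurred. CG33978 held 4 intervals in replicate 1, 3 in replicate 2 and none in replicate 3, between 182314 and 192522 of the minus strand. All 4 in replicate 1 were 25 nt wide, those of replicate 2 were 3 to 20 nt, and all 7 formed stretches of their own. A width of 25 nt was common in replicate 1 as a whole. It made up 55.3% of the members' intervals there and 7.58% in replicate 2, against 52.0% and 9.05% off chromosome 4. The rank of CG33978, 28, rested on replicate 1, without which it was 60.

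Over the 71 genes, joining within 50 nt gave 612 stretches. Of these, 35 in 24 genes had intervals from all 3 libraries (5.72%, where 4.66% of all stretches of the series had), and 8 had at least 2 from each. The common stretches were 24 to 395 nt long, with a median of 142 nt, and held 3 to 16 intervals. In 11 of them the stretch formed the 5′ end of the gene's bound span and in 2 the 3′ end. Thd1 and FBgn0264618 each add 1 to the 35 and to the 11 for the place they share. The ends were not counted off chromosome 4, and their difference was not tested. A single interval made up 356 of the 612 stretches. Of the 12 stretches with the highest mean share, 10 had intervals from each library, and their order also moved with the library left out. The other 2 were those of unc-13 from 921205 to 921488, which ranked 9, but 1 without replicate 1 and 186 without replicate 3, and of Thd1 from 565910 to 566217, which ranked 12, but 43 without replicate 1. The unc-13 stretch from 922031 to 922298 ranked 3, and 11 without replicate 3.

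Single positions were compared next. An interval was counted as near when one of the other library was on the same strand with at most 10 nt between. Replicate 1 had 70 of 141 intervals near replicate 2 (49.6%, 95% Wilson interval 41.5 to 57.8) and 37 near replicate 3 (26.2%, 19.7 to 34.1). Replicate 3 had 133 of 311 near replicate 2 (42.8%, 37.4 to 48.3). Off chromosome 4 the values were 60.2% (58.6 to 61.7), 33.2% (31.7 to 34.7) and 46.7% (45.8 to 47.6). Chromosome 4 was lower in each of these 3 pairs, and for replicate 1 near replicate 2 the Wilson intervals did not overlap. In the opposite directions chromosome 4 was higher. For replicate 2 near replicate 1 it had 10.97% (9.05 to 13.2) against 7.51% (7.24 to 7.796), which did not overlap either. Replicate 3 near replicate 1 had 12.5% against 11.9%, and replicate 2 near replicate 3 had 18.7% against 17.0%, with overlapping intervals. The pairs share libraries and were not tested. On chromosome 4 both edges coincided exactly for 4 intervals of replicates 1 and 2, 1 of replicates 1 and 3 and 2 of replicates 2 and 3. Exact coincidence was not counted off chromosome 4.

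The intervals lay more on the minus strand. The plus strand held 31.2%, 38.5% and 29.6% of the members' intervals in replicates 1, 2 and 3 (33.1% ± 4.75), against 50.1% ± 0.94 elsewhere, and 30 of the 71 genes. Without unc-13 the plus strand held 37.0% ± 3.67. With FBgn0085432 counted it held 37.1% ± 5.54, so the value depended on which genes were counted. Along the chromosome the intervals reached from 25294 to 1275403, and the longest part with no interval in any library, FBgn0085432 included, was 62375 nt, from 395308 to 457682. Parts of 56225, 54961 and 49302 nt were also empty.

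Over the 43 genes with 10 or more intervals, the 5′ part of the bound span took 41.5%, 38.6% and 52.7% of their intervals in replicates 1, 2 and 3, and the 3′ part 45.4%, 53.7% and 34.6%. The bound span ends at the outermost intervals, so both end parts hold at least 1 interval by construction, and untranslated regions, exons and introns were not told apart. The 3′ part held 44.6% ± 9.56 on chromosome 4 and 48.2% ± 3.83 off it. It was higher on chromosome 4 in 2 of 3 libraries, and the mean difference was negative (-3.65 ± 9.28 percentage points, exact two-sided sign-flip permutation p = 1). Replicate 3 was the exception, and without unc-13 the mean on chromosome 4 was 46.3%. By gene, the 5′ part held most in 23 of the 43 and the 3′ part in 16, and the middle part in none, with ties in the rest.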

How the data were processed

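The 3 iCLIP libraries carried, per the labels, a 4-nt experimental and a 5-nt random barcode. CASAVA 1.4, TopHat2 2.0.13 and genome build dm3 are named in the submitters' processing notes. The interval caller, its threshold, the annotation and any removal of duplicates were not given in the sources used here. For each library separately the authors deposited intervals with position, strand and gene ID. The deposited score is 0 in every row, so neither height nor read depth is known, and the number of intervals limits precision.

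Rows on chromosome 4 other than FBgn0085432 were taken, with positions 1-based on dm3. No row there repeated the start, end and strand of another row of its library, though intervals assigned to different genes could overlap. Genes were ranked by mean share over the libraries. Stretches joined intervals of a gene, pooled over the libraries, within 50 nt on one strand. The bound span runs from a gene's first to its last interval over the libraries. Wilson intervals cover counting error only.

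The rule named the 25 highest genes, unc-13, Thd1, list members, up to 3 genes of each pattern of 2 libraries, the best stretch of the 12 highest genes and the 12 highest stretches. Other features were named after their values were seen, and the comparisons of widths, gaps, strands and parts of the bound span were added then. The members, lists and tests were chosen with earlier results of these data known. The names unc-13 and Thd1 came with the choice of members. RefSeq's Release 6 table lists both on chromosome 4 without those IDs and pairs 2 of the 71 IDs with a symbol. Of 51 members of the fixed gene lists 3 were matched (unc-13, Thd1 and mGluR), so the lists are not described.

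The work used matplotlib 3.10.9, scipy 1.17.1, pandas 2.3.3 and numpy 2.4.6 under Python 3.11.15. The joining and overlap steps were tested on simulated data.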

Additional observations from a re-analysis of the deposited data

How the results depend on the processing

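Of 178 alternative values, 169 stayed within 1 SD over the replicates, within 1.5 times for counts, or on the same side for the ratio per gene. Leaving out 1 of 3 libraries cannot move a mean over libraries by 1 SD, so that number says little. The alternatives without unc-13, with only genes bound in all 3 libraries, and for parts of the bound span were chosen after seeing the data. No paired analysis was possible because the libraries form a single group. The 41 genes bound in all 3 libraries became 26 with at least 2 intervals in each, and leaving out each library gave 41 to 55. The 35 common stretches became 23 when joined only where they overlapped or touched, 148 when 2 of 3 libraries sufficed and 8 with at least 2 intervals in each. Leaving out each library gave 38 to 110 (110 without replicate 1 and 69 without replicate 3). Requiring fewer libraries or more intervals changes these counts by construction. The percentage of intervals within 10 nt of another library, averaged over the 3 pairs with the smaller library set against the larger, was 39.6%, and leaving out each library gave 26.2% to 49.6%. It was 26.2% without replicate 2, the library with most intervals, whose absence leaves a single pair. The geometric mean over libraries of the ratio of intervals per bound gene stayed above 1 in every alternative run, from 1.21 to 1.86. With medians over genes in place of means it was 1.68, although replicate 1 alone was level. Among 135 alternative shares of single genes, 2 moved by over 1 SD, both by covered nucleotides and both given above (FBgn0039920 and FBgn0053653). The labels give no culture or batch, read depth is unknown, and 1 interval decides many values of replicate 1.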
